A study of Mus musculus with 6 samples.

Results

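The chemokines and chemokine receptors of cochlear tissue were read from 6 Illumina MouseRef-8 v2 bead arrays, 3 of wild type (WT) mice and 3 of *Cmah*-null mice, with 1 array per sample. Members were chosen by gene symbol alone, as every symbol made of Ccl, Cxcl, Ccr, Cxcr or Ccrl and a number, together with *Cx3cl1*, *Cx3cr1*, *Xcl1*, *Xcr1* and *Darc*. The rule took 72 of the 25697 probes, which stand for 56 of the 18138 gene symbols on the array, 35 of them ligands and 21 receptors. Where a symbol had more than 1 probe, as 10 did, the probe with the highest mean signal stands for the gene. The others are given beside it for members described array by array. All mice were 12 months old and C57BL/6 by the labels, C57BL/6J by the methods of the study, and no treatment is named for either group. The *Cmah*-null mice carry the *Cmah* tm1Ykoz knockout allele, supplied by RIKEN, and lack the enzyme that makes the sialic acid Neu5Gc, while the WT mice are the control. The methods of the study give n = 3 mice per group for the arrays, but no source used here ties each sample to 1 mouse. The spread between arrays may therefore be partly technical. In the data tables the second group is headed "old" and not *Cmah*-null, and its columns were matched to the *Cmah*-null samples by replicate number and because the WT columns were the other 3.

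Chemokines are small secreted proteins that bind G protein-coupled receptors and steer the movement of leukocytes and other cells along gradients. Inflammatory chemokines are induced by cytokines and injury, homeostatic ones place cells in tissues at rest, and scavenging receptors take up chemokines without the usual signalling. In the cochlea, resident macrophages carry the fractalkine receptor Cx3cr1.

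Signals are given on the log2 scale after quantile normalization, and each fold change is the mean of the *Cmah*-null arrays minus the mean of the WT arrays, with its standard error (SE) from limma and n = 3 per group. A gene is called detected on an array where its detection p against negative control beads was under 0.05. The labelled deletion could not be checked on these arrays. The *Cmah* probe gave 7.27, 7.28 and 7.87 in WT replicates 1, 2 and 3 and 7.95, 7.98 and 7.27 in *Cmah*-null replicates 1, 2 and 3, was detected on 1 WT and 2 *Cmah*-null arrays, and its place relative to the deleted part of the gene is not given. Between 13873 and 15223 probes were detected per array, and of the 56 members 26, 26 and 30 were detected in WT and 31, 31 and 25 in *Cmah*-null replicates 1, 2 and 3. *Cmah*-null replicates 1 and 2 were the most alike of all pairs of arrays, with an SD of the log2 difference over all probes of 0.13 against 0.31 to 0.64, and *Cmah*-null replicate 3 stood apart from both. As a bulk tissue measurement, a lower signal cannot separate fewer cells of a type from less RNA per cell. Of 13 cochlear marker genes 8 were detected on all arrays and 2 (*Tectb* and *Otor*) on none, and of 7 hair cell genes *Myo7a*, *Otof*, *Tmc1* and *Gfi1* were detected on all arrays and *Pou4f3*, *Slc26a5* and *Atoh1* on none.

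Few chemokine genes passed the limits used for calling a difference between the genotypes. A gene is called here where its means differ by 1.5-fold or more and its unadjusted p is below 0.05. By that rule, 2 of the 56 members were higher in *Cmah*-null tissue, *Cxcl14* and *Cxcl1*, against 1.61% of all 18138 symbols. In the other direction 1 member was lower, the eosinophil chemokine *Ccl11* (eotaxin), against 1.46% of all symbols. No member had an adjusted p under 0.05 by limma with Benjamini-Hochberg adjustment over all probes, nor did any symbol on the array (0%). The smallest adjusted p among the members was 0.485, and 4 members had an unadjusted p under 0.05. The groups did not overlap for 7 members that were higher in *Cmah*-null tissue, against 10% of all symbols, and for 1 that was lower, against 6.67%. Among those, *Cxcl14*, *Cxcl1* and *Darc* were detected on all 6 arrays, while *Ccl20*, *Ccr1* and *Ccr7* were detected on none of the 6. Separated members in either direction were thus 8 of 56, where 16.7% of all symbols separated. Counting just the 21 members detected on 6 arrays, the same 2 were called higher and 1 lower, against 2.73% and 2.54% of the 9907 symbols so detected, and 3 and 1 separated, against 12.1% and 7.43%.

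Most of the members detected were ligands. Of the 35 ligands 17 were detected on all 6 arrays, and of the 21 receptors 4 were, *Cxcr4*, *Cx3cr1*, *Ccrl2* and *Darc*. Of all members 21 were detected on 6 arrays, 11 on some and 24 on none. The undetected members include the monocyte ligand *Ccl2* with its receptor *Ccr2*, the interferon-induced ligands *Cxcl10* and *Cxcl11*, and 9 of the 11 CC receptors. Over the 56 members 37 fold changes were above 0 and 19 below, with a median of 0.09 on the log2 scale, beside 53.1% above 0 and a median of 0.01 for all symbols. Over the 21 detected on 6 arrays, 14 were above 0 and the median was 0.42, where 55.1% of all symbols so detected were above 0 with a median of 0.04. Receptors reached 1.5-fold in no case, whatever their p, while 8 ligands were at 1.5-fold or more and 1 at that much less.

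**Figure D1:**
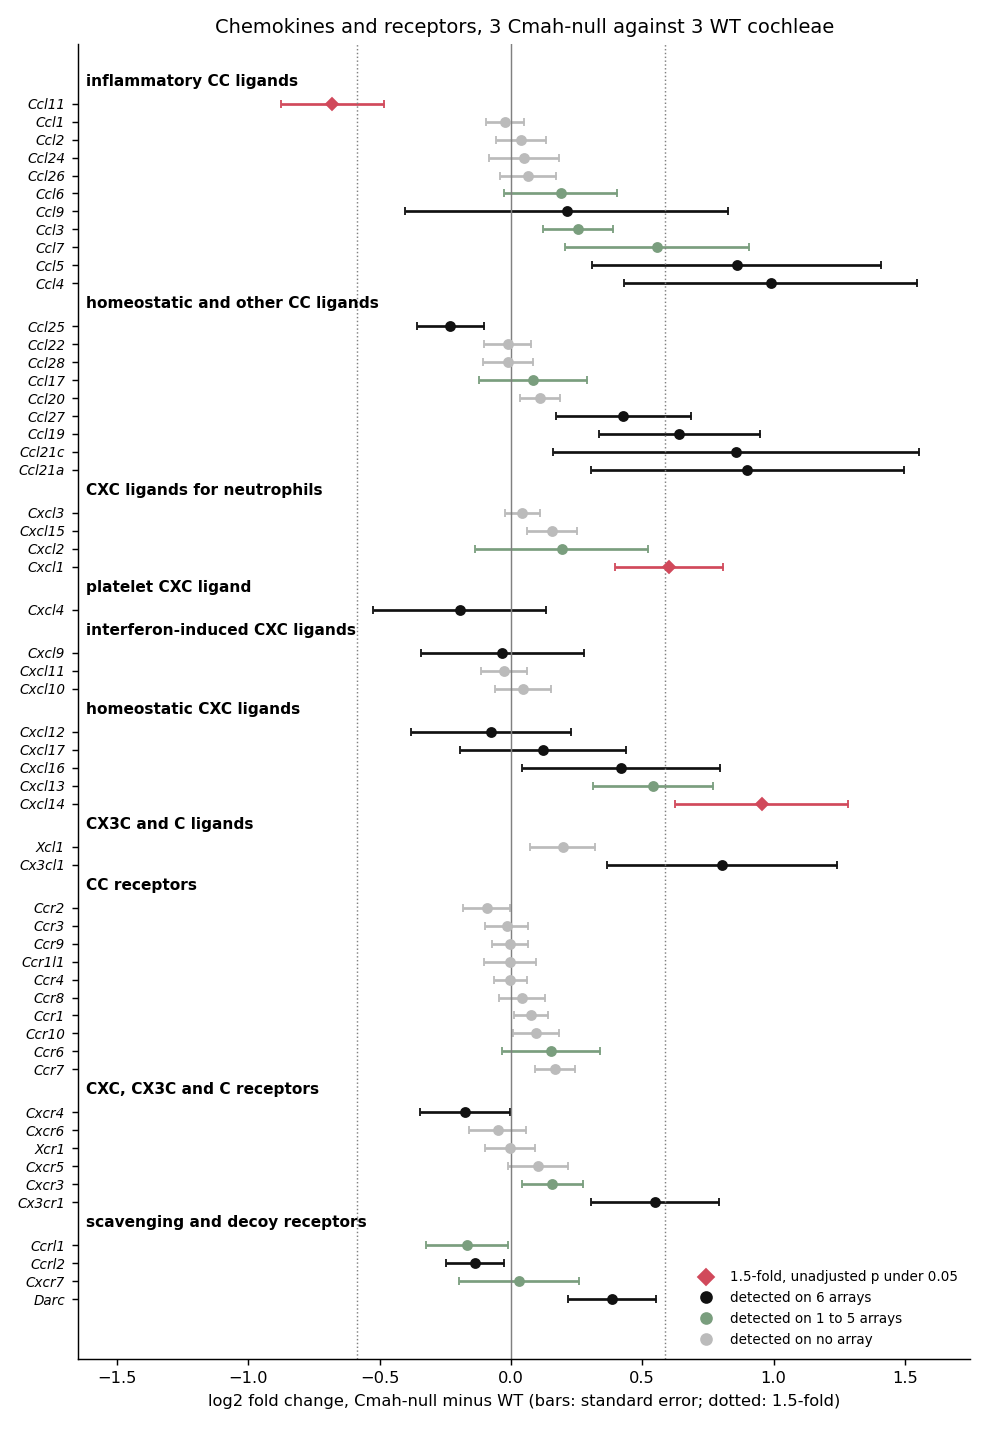
Log2 fold change (horizontal axis, *Cmah*-null minus WT, n = 3 per group) of the members, grouped by role, with bars for the SE and dotted lines at 1.5-fold. The 3 red diamonds are *Ccl11* at -0.68, *Cxcl1* at 0.60 and *Cxcl14* at 0.95. The 24 members detected on no array (grey) lie between -0.09 and 0.20.

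*Cxcl14* encodes a chemokine made by epithelial cells in the absence of inflammation. Its brightest probe gave 9.41, 9.19 and 9.59 in WT and 9.89, 10.08 and 11.09 in *Cmah*-null replicates 1, 2 and 3. All 3 *Cmah*-null arrays were above the WT arrays, with *Cmah*-null replicate 3 well above the others. The log2 fold change was 0.95 (SE 0.33), a 1.94-fold higher mean, with a limma adjusted p of 0.549. A second probe of *Cxcl14* gave 8.13, 8.38 and 8.53 in WT and 9.26, 9.17 and 8.58 in *Cmah*-null replicates 1, 2 and 3, with a log2 fold change of 0.66 (SE 0.21) and a limma adjusted p of 0.530. Both probes put the *Cmah*-null arrays above the WT arrays, but in *Cmah*-null replicate 3 the brightest probe was highest and the second probe lowest of the group. Without WT replicate 1, or without WT replicate 2, *Cxcl14* no longer passed the call rule, although its fold change stayed between 0.59 and 1.19 whichever array was left out.

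*Cxcl1* (KC) draws neutrophils through the receptor Cxcr2 and is induced through NF-kB. It gave 7.59, 8.38 and 8.13 in WT and 8.72, 8.61 and 8.58 in *Cmah*-null replicates 1, 2 and 3. The *Cmah*-null arrays lay close together and above all WT arrays, of which replicate 1 was well below the others. The log2 fold change of 0.60 (SE 0.21), 1.52-fold, was just past the 1.5-fold limit, and the limma adjusted p was 0.546. It did not pass the call rule without WT replicate 1, without WT replicate 3, or without *Cmah*-null replicate 1 or 2, with fold changes between 0.38 and 0.77 over the arrays left out.

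The genes of *Cxcl1*, *Cxcl2* and *Cxcl3*, ligands of the same receptor, lie in 1 cluster on chromosome 5. Their promoters were picked for display because all 3 hold NF-kB letters close to the start, and only *Cxcl1* was called. A search on both strands of the 250 bases before the start for an NF-kB (kB) pattern, GGG and TTTCC with any 2 bases between, found it in 6 of the 41 members that have a promoter in the RefSeq table of build GRCm38.p6 (14.6%), which are *Ccl20*, *Ccl9*, *Ccr3*, *Cxcl1*, *Cxcl2* and *Cxcl3*, and in 1.65% of 27025 genes. The 110 bases before each start follow from RefSeq, 5′ to 3′ on the strand of the gene, with matches to the kB pattern in capitals, some of which read it on the other strand, and with *Cxcl14*, which holds none, for comparison.
Cxcl1, chr5:90891135-90891244, plus strand: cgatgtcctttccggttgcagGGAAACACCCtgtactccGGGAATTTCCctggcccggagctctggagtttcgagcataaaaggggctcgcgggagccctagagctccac
Cxcl2, chr5:90903789-90903898, plus strand: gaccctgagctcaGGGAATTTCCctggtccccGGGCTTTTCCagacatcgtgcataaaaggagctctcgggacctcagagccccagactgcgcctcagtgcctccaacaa
Cxcl3, chr5:90785991-90786100, plus strand: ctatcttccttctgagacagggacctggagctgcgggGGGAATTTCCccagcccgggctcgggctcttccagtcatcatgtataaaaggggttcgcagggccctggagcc
Cxcl14, chr13:56296552-56296661, minus strand: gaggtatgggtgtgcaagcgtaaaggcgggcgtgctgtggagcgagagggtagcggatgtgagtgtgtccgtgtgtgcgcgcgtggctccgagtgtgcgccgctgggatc

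The letters GGGAATTTCC stand in all 3 promoters of the chromosome 5 cluster, and their bearing on the signals was not tested. Of these genes only *Cxcl1* was detected on all 6 arrays. *Cxcl2* gave 7.26, 7.18 and 8.21 in WT and 7.96, 7.94 and 7.33 in *Cmah*-null replicates 1, 2 and 3, was detected on 3 of 6 arrays and had overlapping groups (log2 fold change 0.19, SE 0.33). *Cxcl3* and the lung chemokine *Cxcl15* were detected on no array. The pattern of an interferon-stimulated response element, GAAA and GAAA with any 2 bases between, was found in the 250 bases before the start of 3 members (7.32%), *Ccl19*, *Cxcl10* and *Cxcl14*, against 3.46% of all genes. A match is a description of these letters only.

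*Ccl11*, the main eosinophil chemokine, was the only member called lower. Its brightest probe gave 9.62, 9.34 and 9.47 in WT and 9.01, 9.002 and 8.38 in *Cmah*-null replicates 1, 2 and 3, so that every *Cmah*-null array was below every WT array and *Cmah*-null replicate 3 was the lowest. The log2 fold change was -0.68 (SE 0.20), with a 1.603-fold higher mean in WT and a limma adjusted p of 0.485. A second probe, also detected on 6 arrays, gave 8.22, 8.25 and 8.36 in WT and 8.23, 8.11 and 7.91 in *Cmah*-null replicates 1, 2 and 3. There the groups overlapped, and the log2 fold change was -0.20 (SE 0.11). The call was lost without *Cmah*-null replicate 3, where the fold change was -0.47, with the mean of both probes (-0.44), and with median scaling in place of quantile normalization (-0.38). The other eotaxins, *Ccl24* and *Ccl26*, and the eotaxin receptor *Ccr3* were detected on no array.

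**Figure D2:**
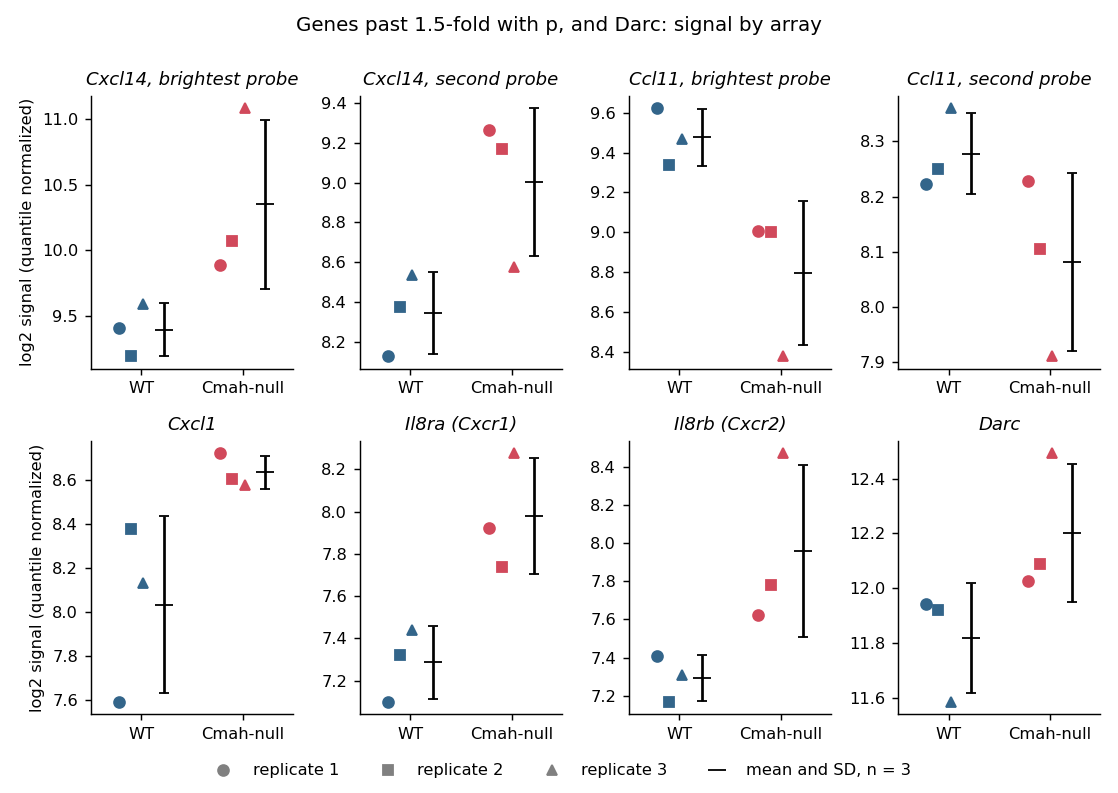
Log2 signal on each array (vertical axis, a scale of its own per panel) for the called genes, with both probes of *Cxcl14* and *Ccl11*, *Il8ra*, *Il8rb* and *Darc*. Points are arrays, with symbols for the replicate number, and bars are the mean and SD of 3 arrays. The groups are apart in all panels but the second probe of *Ccl11*, where WT replicate 1 (8.22) and *Cmah*-null replicate 1 (8.23) lie together. For *Il8ra* and *Il8rb* the WT points are background. For the second probe of *Cxcl14*, WT replicate 3 (8.53) and *Cmah*-null replicate 3 (8.58) are barely apart.

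The array lists the receptors of the neutrophil ligands under older symbols that the naming rule does not take, and both had higher means in *Cmah*-null tissue. *Il8ra* (Cxcr1) gave 7.10, 7.32 and 7.44 in WT and 7.92, 7.74 and 8.28 in *Cmah*-null replicates 1, 2 and 3. *Il8rb* (Cxcr2) gave 7.41, 7.17 and 7.31 in WT and 7.62, 7.78 and 8.47. Neither was above background on any WT array and both were detected on all 3 *Cmah*-null arrays, so the differences are bounds against the lowest detected signal of each WT array, at least 1.43-fold higher for *Il8ra* (limma adjusted p 0.425) and at least 1.41-fold higher for *Il8rb* (limma adjusted p 0.55). Both passed the call rule on the measured means, but that rests on background values in WT, and the bounds are under 1.5-fold. Cxcr2 is chiefly a receptor of neutrophils, and of 11 neutrophil genes none was called in either direction. Yet 6 of the 11 were at 1.5-fold or more above WT, with overlapping groups in all but 1 (*Ela2*), none was at that much below, and the median log2 fold change was 0.69. Their summed linear signal was 82209 to 113657 in WT and 87480 to 101207 in *Cmah*-null arrays, the larger part of it from *Ltf*, which lay between 15.92 and 15.99 on every array. The part of neutrophil number in these receptor signals was not tested.

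The members detected on all arrays varied more among the arrays of a group than most genes did. The median range over the 3 WT arrays was 0.74 and over the 3 *Cmah*-null arrays 0.93, against 0.38 and 0.54 for all symbols detected on 6 arrays. WT replicate 1 was the lowest and WT replicate 3 the highest in 11 of the 21 members (52.4%, against 28.6% of those symbols). *Cmah*-null replicate 3 was the lowest of its group in 13 (61.9% against 43.5%), and in 10 of them it was below both other arrays by 1.5-fold or more (47.6% against 19.1%). Both patterns held together in 8 members (38.1% against 11.6%). The median log2 signal of the 21 members was 8.87, 9.19 and 9.47 in WT and 9.82, 9.81 and 9.33 in *Cmah*-null replicates 1, 2 and 3, so that *Cmah*-null replicate 3 lay between WT replicates 2 and 3. *Cmah*-null replicates 1 and 2 differed by a median of 0.05 and by at most 0.22 in any of the 21.

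**Figure D3:**
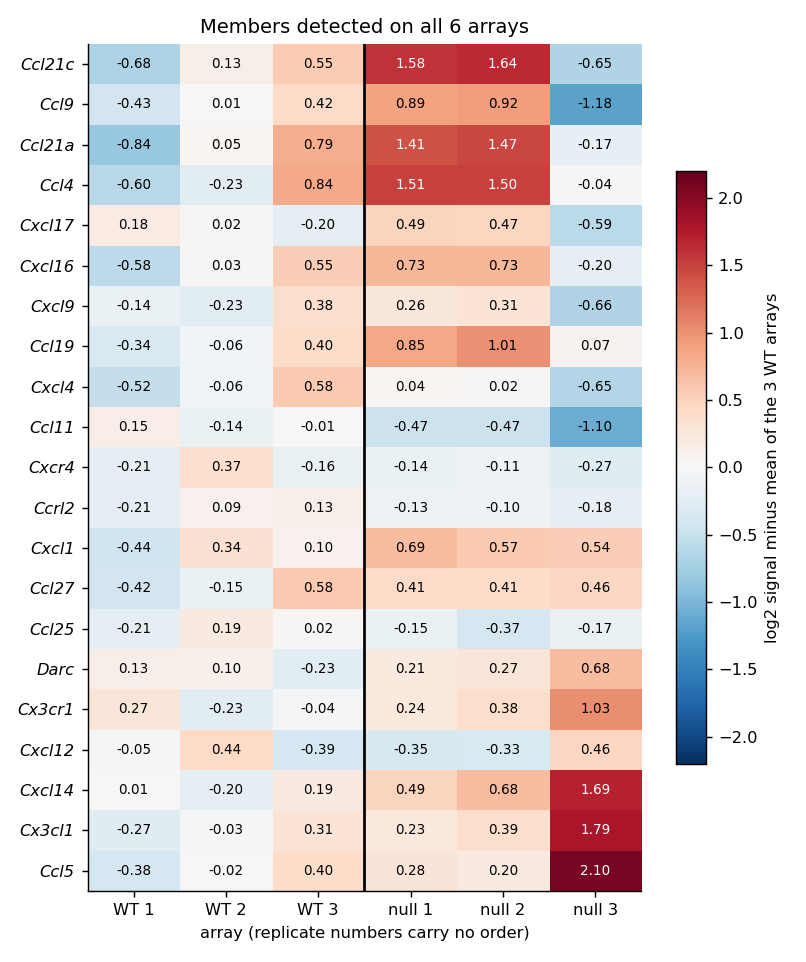
Log2 signal of each of the 21 members detected on 6 arrays, minus the mean of its 3 WT arrays, for every array (columns, colour scale in log2 units), ordered by how far *Cmah*-null replicate 3 lay below the other *Cmah*-null arrays. In *Ccl21c* at the top that gap is 2.23, and in *Ccl5* at the bottom *Cmah*-null replicate 3 is higher by 1.90 than the lower of the others.

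The lymphoid tissue chemokines *Ccl21a*, *Ccl21c* and *Ccl19*, all ligands of Ccr7 that guide dendritic cells and lymphocytes through lymphatic vessels, showed that split. *Ccl21a* gave 10.20, 11.09 and 11.83 in WT and 12.45, 12.51 and 10.87 in *Cmah*-null replicates 1, 2 and 3. *Ccl21c* gave 8.87, 9.68 and 10.10 in WT and 11.13, 11.19 and 8.89. *Ccl19* gave 7.74, 8.01 and 8.48 in WT and 8.92, 9.08 and 8.15. In all 3 genes *Cmah*-null replicates 1 and 2 were above every WT array, and *Cmah*-null replicate 3 lay among the WT arrays. The fold changes of 0.90 (SE 0.60), 0.86 (SE 0.70) and 0.64 (SE 0.30) did not pass the call rule. Without *Cmah*-null replicate 3 all 3 passed it, with *Ccl21a* at 1.44, *Ccl21c* at 1.61 and *Ccl19* at 0.93 on the log2 scale, and all 3 still had no adjusted p under 0.05. The mouse genome holds near-identical Ccl21 copies on chromosome 4, so the 2 Ccl21 probes may read the same transcripts and are not independent. Their receptor *Ccr7* was detected on no array.

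Beside these ligands, the 5 genes of a lymphatic vessel list chosen after values were seen had a summed linear signal of 9656 to 10602 in WT and 10481 to 12924 in *Cmah*-null arrays, with *Prox1* called higher (log2 fold change 0.73). That sum was lowest of its group in *Cmah*-null replicate 3, at 10481, but there *Prox1* and *Lyve1* were at their highest, 9.54 and 9.82. The part of lymphatic vessels in the Ccl21 and *Ccl19* signals was not tested.

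*Ccl27*, the keratinocyte chemokine that draws skin-homing T cells, gave 11.29, 11.56 and 12.29 in WT and 12.13, 12.12 and 12.17 in *Cmah*-null replicates 1, 2 and 3. WT replicate 3 was the highest of all 6 arrays, so the groups overlapped, and the log2 fold change was 0.43 (SE 0.26). A second probe gave 0.50 (SE 0.23). Without WT replicate 3 the fold change of the first was 0.72 and passed the call rule, as it did at 0.95 with median scaling, and without WT replicate 1 it was 0.22. The 9 found genes of an epidermis list, also chosen after values were seen, had a summed linear signal of 31579, 44095 and 118607 in WT and 103430, 100539 and 113120 in *Cmah*-null replicates 1, 2 and 3, with *Trp63* called higher (1.08) and *Dsg1a* detected on no array. The lowest and the highest WT array were the same for that sum and for *Ccl27*, and the part of skin in the tissue was not tested. The gene span of *Ccl27* overlaps that of *Il11ra1* in the annotation, which may make its signal uncertain.

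The other homeostatic CC ligands differed little. *Ccl25*, known from thymus and gut, gave 8.75, 9.15 and 8.98 in WT and 8.81, 8.59 and 8.79 in *Cmah*-null replicates 1, 2 and 3 (log2 fold change -0.23, SE 0.13), with overlapping groups. A second *Ccl25* probe, detected on 5 arrays, was at -0.15 (SE 0.10). *Ccl17* was detected on 4 arrays at 0.08 (SE 0.21), and *Ccl20*, *Ccl22* and *Ccl28* were detected on none.

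Among the inflammatory CC ligands, *Ccl4* and *Ccl5* had their high signals on different arrays. *Ccl4* (MIP-1 beta) gave 7.71, 8.08 and 9.15 in WT and 9.82, 9.81 and 8.28 in *Cmah*-null replicates 1, 2 and 3 (log2 fold change 0.99, SE 0.56). *Ccl5* (RANTES), a product of T cells and platelets, gave 7.76, 8.12 and 8.54 in WT and 8.42, 8.34 and 10.24 (log2 fold change 0.86, SE 0.55). For *Ccl4*, *Cmah*-null replicates 1 and 2 were above WT and replicate 3 was not, while for *Ccl5* only *Cmah*-null replicate 3 was above WT. Neither passed the call rule, but without *Cmah*-null replicate 3 *Ccl4* did, while the *Ccl5* fold change was then 0.24. By PCR array, another measure, the study reported *Ccl5* as lower in *Cmah*-null cochlea, the opposite direction to the mean here. A second *Ccl4* probe, detected on 1 array, was at 0.24 (SE 0.12). The annotated gene spans of *Ccl3* and *Ccl4* overlap, which may make either signal uncertain.

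*Ccl9*, a myeloid cell chemokine, turned on a single array. It gave 10.19, 10.62 and 11.04 in WT and 11.51, 11.54 and 9.44 in *Cmah*-null replicates 1, 2 and 3, so that the lowest and the highest values of all 6 arrays were both *Cmah*-null. The log2 fold change was 0.21 (SE 0.61) with all arrays, 0.91 without *Cmah*-null replicate 3, where it passed the call rule, and -0.14 at the lowest with another array left out. *Ccl7*, a monocyte chemokine detected on 5 arrays, gave 7.44, 7.73 and 8.002 in WT and 8.76, 8.56 and 7.53 (log2 fold change 0.56, SE 0.35). *Ccl3* and *Ccl6* were detected on 3 and 4 arrays, at 0.26 and 0.19, and *Ccl1*, *Ccl2*, *Ccl24* and *Ccl26* on none.

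Of the 15 macrophage genes, all detected on 6 arrays, none was called. Their summed linear signal was 116336 to 150660 in WT, and 142898, 142743 and 93297 in *Cmah*-null replicates 1, 2 and 3, so *Cmah*-null replicate 3 was the lowest array there as well as for *Ccl9*. The macrophage receptor gene *Cx3cr1* went the other way, with its highest signal, 9.36, in that array. Of 9 T cell genes none was called and *Cd4* and *Cd8a* were detected on no array, but *Cd3e* gave 7.63, 7.79 and 8.01 in WT and 8.14, 8.06 and 9.29 in *Cmah*-null replicates 1, 2 and 3, highest in the same array as *Ccl5*. Of the 9 fold changes 8 were above 0. *Cd3e*, *Lck* and *Cd2* had groups that did not overlap, all higher in *Cmah*-null arrays, against 10% of all symbols. The summed T cell signal was 8552 to 15841 in WT and 14341 to 15879 in *Cmah*-null arrays, nearly all of it from *Thy1*, which neurons express too. The part of cell numbers in these signals was not tested.

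The fractalkine pair was not called. *Cx3cl1*, a membrane-bound chemokine of neurons and endothelium, gave 9.54, 9.78 and 10.12 in WT and 10.04, 10.20 and 11.60 in *Cmah*-null replicates 1, 2 and 3 (log2 fold change 0.80, SE 0.44). Its receptor gene *Cx3cr1* gave 8.60, 8.10 and 8.29 in WT and 8.57, 8.71 and 9.36 (log2 fold change 0.55, SE 0.24). In each gene *Cmah*-null replicate 3 was the highest array by far, and 1 *Cmah*-null array lay within the WT range. Both stayed above 0 in all 14 alternatives, from 0.31 to 1.22 for *Cx3cl1* and from 0.31 to 0.84 for *Cx3cr1*.

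*Cxcl12* (SDF-1), which holds blood stem cells in marrow and guides migrating neurons, showed no steady direction. Its brightest probe gave 12.11, 12.60 and 11.78 in WT and 11.81, 11.83 and 12.62 in *Cmah*-null replicates 1, 2 and 3 (log2 fold change -0.08, SE 0.30). The highest WT and the highest *Cmah*-null array were nearly level. The other 4 probes gave 0.14, -0.07, -0.14 and -0.18, the last 2 detected on no array. Its receptor gene *Cxcr4* gave 8.46, 9.05 and 8.52 in WT and 8.53, 8.57 and 8.40 (log2 fold change -0.17, SE 0.17). Under median scaling both were above 0, at 0.43 and 0.03.

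**Figure D4:**
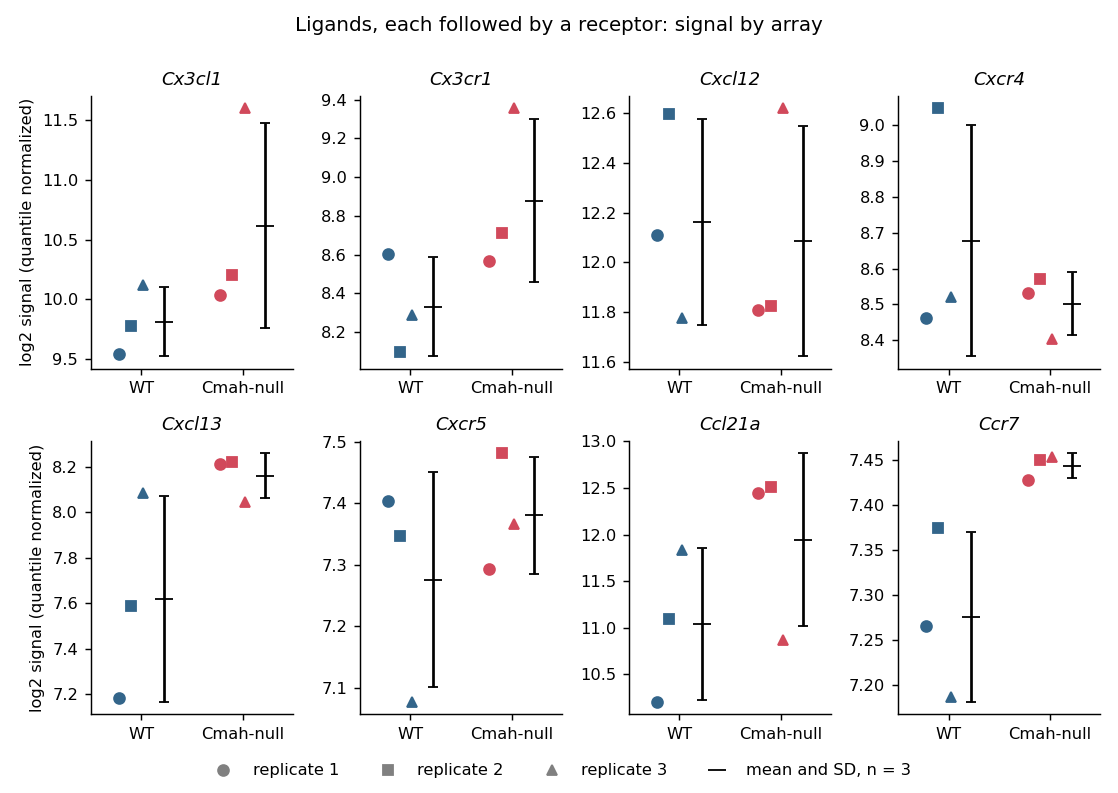
Log2 signal on each array (vertical axis, a scale of its own per panel) for 4 ligands, each followed by a receptor. Points are arrays, with symbols for the replicate number, and bars are the mean and SD of 3 arrays. In *Cx3cl1* and *Cx3cr1* the highest array is *Cmah*-null replicate 3, while in *Ccl21a* that array is the lowest of its group. *Cxcr5* and *Ccr7* were detected on no array.

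*Cxcl13*, which draws B cells into follicles, was detected on 5 arrays and gave 7.18, 7.59 and 8.08 in WT and 8.21, 8.22 and 8.05 in *Cmah*-null replicates 1, 2 and 3 (log2 fold change 0.54, SE 0.23). WT replicate 3 lay just above the lowest *Cmah*-null array, so the groups overlapped. Its receptor *Cxcr5* was detected on no array with any of 3 probes. Of 8 B cell genes none was called, and their summed linear signal was 1867 to 2838 in WT and 2052 to 2598 in *Cmah*-null arrays.

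*Cxcl16*, a membrane-bound scavenger of oxidized lipid as well as a chemokine, gave 8.94, 9.56 and 10.08 in WT and 10.25, 10.25 and 9.33 in *Cmah*-null replicates 1, 2 and 3 (log2 fold change 0.42, SE 0.38). *Cxcl17*, a mucosal chemokine, gave 8.35, 8.20 and 7.98 in WT and 8.66, 8.65 and 7.58 (log2 fold change 0.12, SE 0.32). *Cxcl9*, induced by interferon gamma, gave 8.39, 8.30 and 8.91 in WT and 8.79, 8.84 and 7.87 (log2 fold change -0.03, SE 0.31). In all 3 genes *Cmah*-null replicate 3 was the array furthest below its group, and the groups overlapped. *Cxcr6*, the receptor of Cxcl16, was detected on no array, and *Cxcr3*, the receptor of Cxcl9, only in *Cmah*-null replicate 3, at 7.605.

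*Cxcl4*, or platelet factor 4, is stored in platelets. It gave 9.77, 10.22 and 10.87 in WT and 10.32, 10.31 and 9.64 in *Cmah*-null replicates 1, 2 and 3 (log2 fold change -0.20, SE 0.33). *Ppbp*, the other platelet chemokine, which the naming rule does not take, gave 9.70, 7.59 and 8.87 in WT and 10.42, 10.33 and 8.01 (log2 fold change 0.87, SE 0.83). Both had *Cmah*-null replicate 3 low and overlapping groups. Of 6 platelet genes, *Ppbp* included, 4 were called higher, *Gp5* (0.88), *Treml1* (1.05), *Gp1bb* (0.59) and *Itga2b* (0.70), against 1.61% of all symbols. The summed linear signal of the 6 was 1514 to 3088 in WT and 3689 to 4358 in *Cmah*-null arrays. *Cxcl4* was not tested against those genes.

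Of the scavenging receptors among the members, *Darc* separated the genotypes. *Darc*, the Duffy antigen receptor of venules and red cells that binds many inflammatory chemokines, gave 11.94, 11.92 and 11.58 in WT and 12.03, 12.09 and 12.49 in *Cmah*-null replicates 1, 2 and 3. The groups did not overlap, and the log2 fold change of 0.39 (SE 0.17, limma adjusted p 0.601) was under 1.5-fold. The gene span of *Darc* overlaps that of *Cadm3* in the annotation, so its signal may be uncertain. Of 8 erythroid genes none was called, but 3 were lower by 1.5-fold or more and none higher by that much. Of 8 endothelial genes 1 was called, *Cldn5* lower at -0.73, and 1 was at 1.5-fold or more above WT. The summed linear signal of the endothelial genes was 10314, 10323 and 10717 in WT and 8293, 8702 and 18513 in *Cmah*-null replicates 1, 2 and 3. The part of these cells in the *Darc* signal was not tested.

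*Ccbp2* (D6), a decoy receptor for inflammatory CC chemokines that the naming rule does not take, was called higher. It gave 8.23, 8.52 and 9.20 in WT and 9.45, 9.25 and 9.33 in *Cmah*-null replicates 1, 2 and 3, with a log2 fold change of 0.70 (SE 0.25, limma adjusted p 0.564) and no overlap, although WT replicate 3 was nearly level with *Cmah*-null replicate 2. *Ccrl2*, which presents chemerin, gave 8.01, 8.31 and 8.35 in WT and 8.09, 8.12 and 8.04 (log2 fold change -0.14, SE 0.11). *Ccrl1*, a scavenger of Ccl19 and Ccl21, gave 7.74, 8.01 and 7.57 in WT and 7.57, 7.83 and 7.43 (log2 fold change -0.17, SE 0.16), and *Cxcr7*, which takes up Cxcl12, gave 7.71, 7.75 and 7.66 in WT and 8.06, 7.94 and 7.22 (log2 fold change 0.03, SE 0.23). The last 3 had overlapping groups and differed by less than 1.5-fold.

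Members of the named pairs that were detected on no array gave only background signals. The monocyte ligand *Ccl2* gave 7.17, 7.21 and 7.24 in WT and 7.38, 7.26 and 7.09 in *Cmah*-null replicates 1, 2 and 3, and its receptor gene *Ccr2* gave 7.04, 7.05 and 7.23 in WT and 7.02, 6.93 and 7.08. *Ccr7* gave 7.27, 7.37 and 7.19 in WT and 7.43, 7.45 and 7.45, and *Cxcl10* gave 7.18, 7.33 and 7.35 in WT and 7.48, 7.35 and 7.17. *Cxcr5* gave 7.404, 7.35 and 7.08 in WT and 7.29, 7.48 and 7.37, and *Cxcr6* gave 7.07, 7.22 and 7.39 in WT and 7.26, 7.20 and 7.07. At these signals neither a level nor a difference could be read, the separated groups of *Ccr7* included.

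The rest of the chemokine pathway was given by lists, beside which 1.61% of all symbols were called higher and 1.46% lower. Of the 8 found chemokine genes with other names 3 were called higher and none lower, *Il8ra*, *Il8rb* (both against background in WT) and *Ccbp2*. Of 13 genes for G protein coupling and desensitisation none was called, and of 21 effectors 2 were higher, *Elmo1* (0.60), which activates Rac with Dock2, and *Tiam1* (0.74), a Rac exchange factor, and none lower. None of 7 genes for matrix handling and processing was called. Of 17 inducer genes none was called, with *Il1b* at 7.19, 7.74 and 8.29 in WT and 9.16, 9.16 and 7.91 in *Cmah*-null replicates 1, 2 and 3 and *Tnf* detected on no array. Groups did not overlap in 4 of the 17, all higher in *Cmah*-null arrays, against 10% of all symbols, and 6 were detected on no array. Of 17 interferon-induced genes 3 were higher, *Oasl2* (1.72), *Irf7* (1.08) and *Mx2* (0.83), and none lower. Among the interferon-induced chemokines *Cxcl9* was at -0.03 (SE 0.31), while *Cxcl10* and *Cxcl11* were detected on no array, so no difference could be read for them. None of these genes had an adjusted p under 0.05 by limma.

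Of the tissue lists that follow, only the brown fat list held called genes. Of 5 brown fat genes 4 were called lower in *Cmah*-null tissue, *Ucp1* (-2.11), *Cidea* (-2.01), *Cox8b* (-1.44) and *Ppargc1a* (-0.65), against 1.46% of all symbols. The summed linear signal of the 5 was 36349 to 57179 in WT and 7608 to 22139 in *Cmah*-null arrays. Of 9 fibroblast and bone lining genes none was called, but 8 fold changes were below 0, 3 of them by 1.5-fold or more, with a median of -0.45, and of 6 skeletal muscle genes none was called, but all 6 were below 0, 3 of them by 1.5-fold or more, with a median of -0.68. Of 5 NK cell genes none was called. The part of tissue makeup in the chemokine values was not tested. By RefSeq, 52 of the 56 members could be placed on the genome, with 13 on chromosome 9, where most receptor genes lie, 11 on chromosome 11 and 10 on chromosome 5.

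**Figure D5:**
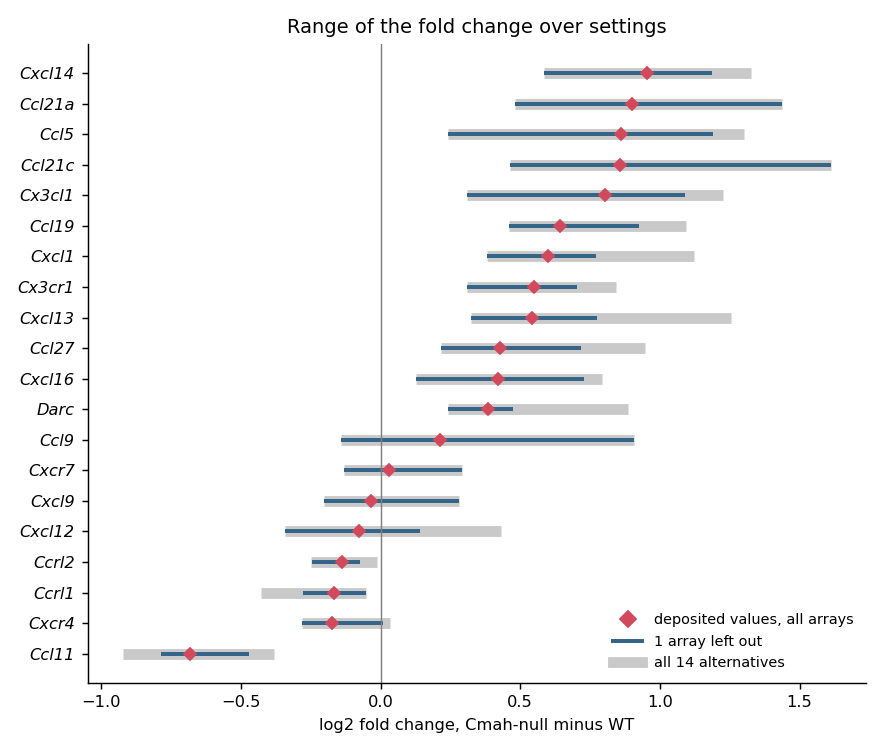
Log2 fold change (horizontal axis, *Cmah*-null minus WT) of members described array by array with the deposited values of all arrays (diamonds), its range when 1 array is left out (blue) and over all 14 alternatives (grey). *Cxcl14* spans 0.59 to 1.33, *Ccl11* -0.92 to -0.38 and *Cxcl1* 0.38 to 1.12, none crossing 0, while *Ccl9*, *Cxcl12*, *Cxcl9*, *Cxcr4* and *Cxcr7* cross it.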

How the data were processed

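Total RNA of cochlear tissue was labelled with biotin and hybridized to 1 bead array per sample. The authors deposited intensity values (average bead signals on a linear scale, not normalized), and, for every probe, a detection p value, how many beads were read and the standard error over them, as the scanner's software wrote them. Their second table holds log2 values, quantile normalized by the authors, which were checked to equal quantile-normalized log2 signals without background correction (largest difference 5e-07). In it 12 further columns per sample, copies of signals and detection p values, were left out. Its fold changes, local pooled error statistics, adjusted p values and group means are the authors' comparison and were not used either. An array had a median of 32 to 39 beads per probe. The number of arrays limits the precision.

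The log2 values of all 25697 probes were compared by two-sided tests in limma 3.58.1 under R 4.3.3, using lmFit and eBayes without covariates and the Benjamini-Hochberg adjustment. The brightest probe stands for a symbol. Called means 1.5-fold with an unadjusted p under 0.05. The study used the same fold and p limits and does not say whether its p was adjusted. Named with array values were members called or not overlapping whose detection was complete in a group, the 6 brightest members, listed ligand and receptor pairs, and scavenging receptors, and any further gene was picked once its values were known. A receptor not above background in WT is given as a bound. The members and lists were chosen with earlier results of these data known. The fit was tested on simulated data. The alternatives were neqc (offset 16), median scaling, a filter on detection on at least 3 arrays, the replicate number and the bead number as blocks, a variance prior with trend and robust, averaging *Cmah*-null replicates 1 and 2, the mean of all probes of a symbol, and each array left out. Promoters and overlaps came from RefSeq, build GRCm38.p6, where 41 members had a promoter and 15 did not. An overlap is of whole gene spans, and strand, exons and probe position were not compared. *Cxcl16* (with *Zmynd15*), *Ccrl1* (with *Acad11*) and some other members also overlap a protein-coding gene. Plots used Python 3.11.15 and matplotlib 3.10.9. 1 member is not reported here by name, although it is counted.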

Additional observations from a re-analysis of the deposited data

How the results depend on the processing

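No member reached an adjusted p under 0.05 in any of the 14 alternatives, and of the 21 members tried in each, 16 never changed direction. With the bead number as a block 3 of all probes did reach it by limma. An unadjusted p under 0.05 was then found for 4540 probes, against 2199 with the deposited values and no block. The count called higher, 2 with the deposited values, was 9 with median scaling, 5 with the bead number as a block, 1 with *Cmah*-null replicates 1 and 2 averaged, and 0 (without WT replicate 1) to 8 (without *Cmah*-null replicate 3) with 1 array left out, 1 without WT replicate 2 or *Cmah*-null replicate 2, and 4 without WT replicate 3. Shares of all symbols called higher were 4.17% with the bead block, 1.78% with the arrays averaged and 1.74% without WT replicate 1. They were 2.02% without *Cmah*-null replicate 3, 2.51% without WT replicate 3, 0.948% without WT replicate 2 and 1.9% without *Cmah*-null replicate 2. Median scaling also moved the median of all symbols detected on 6 arrays from 0.04 to 0.34 and the share of symbols called higher from 1.61% to 11.8%. The count called lower, 1, was 0 with median scaling (0.27% of all symbols) and with the mean of all probes (1.1%). It was 0 (without *Cmah*-null replicate 3, 1.93%) to 1 with 1 array left out. Groups that did not overlap, 8 members, became 5 with the detection filter, where 31 members were left, beside 19% of symbols passing it. With 1 array left out they were 8 to 25, since fewer arrays overlap less. That was 25 without *Cmah*-null replicate 3 (34.8% of all symbols) and 20 without WT replicate 3 (28.5%). The members' median fold change stayed between 0.05 and 0.26.

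Some genes turned direction. *Ccl9* was -0.029 with the bead block, -0.14 with the arrays averaged and -0.14 to 0.91 with 1 array left out. *Cxcl12* was 0.43 with median scaling, 0.071 with the bead block, 0.058 with the arrays averaged and -0.34 to 0.14 with 1 array left out. *Cxcl9* was 0.22 and *Cxcr4* 0.032 with median scaling, and they spanned -0.20 to 0.28 and -0.28 to 0.010 with 1 array left out. *Cxcr7* was -0.10 with the bead block and -0.10 with the arrays averaged, and -0.13 to 0.29 with 1 array left out. The cause was not tested. With the replicate number as a block 3 members were called higher and 1 lower, beside 1.96% and 1.62% of all symbols, *Cx3cl1* being added at 0.80. The labels do not say that the number pairs the samples. The deviations of arrays that share a number correlated at 0.02, -0.17 and 0.01. Those of arrays with unlike numbers correlated at -0.10 to 0.17, so these values cannot settle whether samples were paired.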
